A study of Mus musculus with 6 samples.

Results

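The cytochrome P450 2C genes were examined in the liver RNA-seq of mice that lack Wtap in hepatocytes. The rule named 10 genes, Cyp2c29, Cyp2c37, Cyp2c38, Cyp2c39, Cyp2c40, Cyp2c44, Cyp2c50, Cyp2c54, Cyp2c55 and Cyp2c70, and took each protein-coding row of the expression table with that name. It found 9 of them among 54777 genes. Cyp2c44 had no row. RefSeq lists that name as an older one for Cyp2c23, which was in the table and is described here among the 6 other protein-coding Cyp2c genes. All 15 lay on chromosome 19 (GRCm38). The members were named as a gene family and not by a measured value, though earlier results of these data were known when they were chosen.

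The study compared Wtap flox/flox mice (Wtap-flox, 3 livers) with Wtap flox/flox mice that also carried Alb-Cre (Wtap-HKO, 3 livers), so both groups bore the floxed alleles. All were male C57BL/6 mice, aged 8 weeks and fed normal chow, with 3 independent mice described per group. Cre was driven by the albumin promoter, which is active in hepatocytes, whereas the libraries were made from whole liver. The labels give no Cre for the controls. The loxP sites flank exon 4 of Wtap, which encodes a regulatory subunit of the complex that writes N6-methyladenosine on RNA.

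Cytochrome P450 enzymes of the 2C family are heme proteins of the endoplasmic reticulum. Electrons from NADPH reach them through P450 oxidoreductase, and they insert 1 oxygen atom into a lipid, a steroid, a bile acid or a drug. In mouse liver several of them turn arachidonic acid into epoxides and hydroxy acids. The family has expanded into many close copies in rodents, and its genes are known to respond to the nuclear receptors CAR, PXR and HNF4A and to sex-dependent growth hormone secretion.

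The copies are shown first, because a read from a stretch that is the same in 2 genes cannot be placed. Coding sequences were taken as the longest open reading frame of each gene in the GENCODE transcripts. Cyp2c40 was nearest to Cyp2c69, with 97.9% identical bases. Cyp2c37 and Cyp2c50 shared 96.1%, Cyp2c54 and Cyp2c50 95.2%, and Cyp2c38 and Cyp2c39 94.2%. Cyp2c29 had 89.5% with Cyp2c39. Cyp2c55 and Cyp2c70 had no close copy, since their nearest relatives reached 77.5% and 68.8%. When the transcripts were divided into every window of 100 bases, 34.4% of the windows of Cyp2c40 occurred unchanged in another gene. The share was 7.59% in Cyp2c54, 5.35% in Cyp2c50, 4.70% in Cyp2c37 and 1.36% in Cyp2c29. No window of Cyp2c38, Cyp2c39, Cyp2c55 or Cyp2c70 was shared. The values of Cyp2c40 are therefore the least certain of the members, as reads from stretches it shares, most often with Cyp2c69, could be left uncounted or misplaced. The pseudogene Cyp2c53-ps overlapped Cyp2c29 on the same strand by 5581 bases, and it held 13 reads over all libraries.

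**Figure D1:**
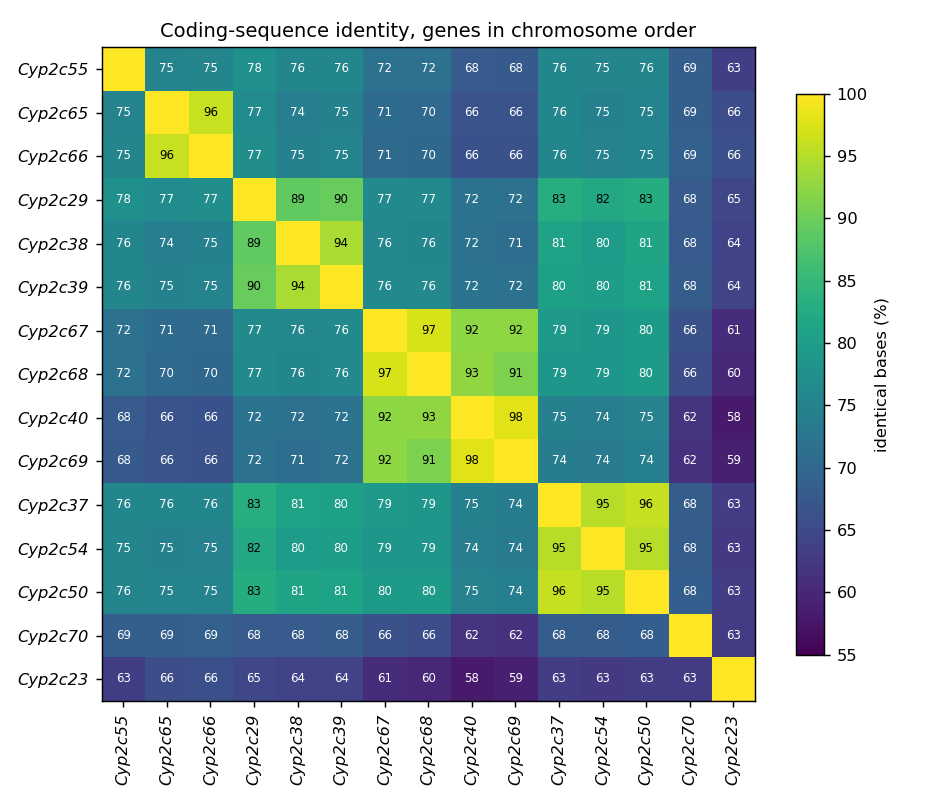
Percentage of identical bases between the coding sequences of the 15 protein-coding Cyp2c genes, in their order along chromosome 19. Blocks of near copies lie side by side, such as Cyp2c40 and Cyp2c69 with 97.9%, whereas Cyp2c70 and Cyp2c23 reach at most 68.8% and 65.9% with any other gene.

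The sequence before the start site was read for the members, since these genes are known as targets of liver nuclear receptors. RefSeq promoters (GRCm38.p6, 250 bases before the start) were at hand for 8 of the 9 members (not Cyp2c54). Motifs were searched on both strands and were chosen after the promoters had been read. The 7 bases CAAAGTC, the core of a site for the hepatocyte receptor HNF4A, stood before 5 of the 8 genes, against 3.84% of 32851 mouse promoters. Near copies share their upstream sequence, so these 5 are not independent. The 40 bases about each core show how alike they are, with the core in capitals and each line 5′ to 3′ along the gene. Cyp2c37 held 2 cores and Cyp2c39 has 2 RefSeq starts, of which the core nearer the start and the start nearer the Ensembl gene are shown, and Cyp2c69 is added as the near copy of Cyp2c40.
Cyp2c29, chr19:39286961-39287000, plus strand: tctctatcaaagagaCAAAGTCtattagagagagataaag
Cyp2c39, chr19:39510721-39510760, plus strand: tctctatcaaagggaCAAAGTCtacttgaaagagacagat
Cyp2c37, chr19:39992293-39992332, plus strand: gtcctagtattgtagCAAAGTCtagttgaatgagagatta
Cyp2c40, chr19:39812835-39812874, minus strand: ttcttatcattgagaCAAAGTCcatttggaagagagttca
Cyp2c69, chr19:39886820-39886859, minus strand: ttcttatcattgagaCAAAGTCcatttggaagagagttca
Cyp2c70, chr19:40187326-40187365, minus strand: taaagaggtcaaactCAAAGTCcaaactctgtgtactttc

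The core began 109 bases before the start of Cyp2c29 and 64 bases before that of Cyp2c70. The windows of Cyp2c40 and Cyp2c69 were the same in all 40 bases. Cyp2c38, Cyp2c50 and Cyp2c55 held no CAAAGTC in these 250 bases. In Cyp2c50 the place that best matched the window of Cyp2c37 differed from it at 3 of 40 bases, 1 of them in the core. The 7 bases in the place of the core are in capitals.
Cyp2c50, chr19:40089550-40089589, plus strand: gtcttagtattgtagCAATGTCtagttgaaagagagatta

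The whole 250 bases are printed for Cyp2c29, the most abundant member, and for Cyp2c55, the only member that rose. Capitals mark every motif found among CAAAGTC (the HNF4A core), AGGTCA (a nuclear receptor half-site), GTTAAT (an HNF1 half-site), TGTTTAC (a FOXA site) and TATAAA (the TATA box), which do not overlap each other here.
Cyp2c29, chr19:39286835-39287084, plus strand: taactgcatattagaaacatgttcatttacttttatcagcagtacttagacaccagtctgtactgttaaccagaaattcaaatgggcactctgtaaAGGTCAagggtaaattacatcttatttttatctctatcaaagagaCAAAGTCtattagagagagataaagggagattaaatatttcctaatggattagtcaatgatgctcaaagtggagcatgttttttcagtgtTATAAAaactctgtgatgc
Cyp2c55, chr19:39006769-39007018, plus strand: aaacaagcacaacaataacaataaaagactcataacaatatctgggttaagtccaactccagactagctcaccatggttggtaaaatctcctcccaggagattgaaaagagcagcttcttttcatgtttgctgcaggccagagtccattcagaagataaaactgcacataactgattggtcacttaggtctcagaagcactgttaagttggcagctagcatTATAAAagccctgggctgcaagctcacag

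Cyp2c29 held the HNF4A core, 1 AGGTCA and a TATA box, and Cyp2c55 held the TATA box alone. Over all promoters AGGTCA occurred in 14%, TATAAA in 12.4%, GTTAAT in 6.43% and TGTTTAC in 3.17%. Among the 8 genes AGGTCA occurred in 3, TATAAA in 4, TGTTTAC in 2 and GTTAAT in 1. A match is a run of letters and was not tested as a binding site.

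Values were deposited as FPKM, reads per gene set against gene length and library size. The reads behind them numbered 15559250 to 18510477 per library. The authors' scaling had already set the libraries to a common median gene. On the TPM scale, where all libraries are given equal FPKM sums, the median log2 fold change of all genes moved from 0.01 to 0.54. List counts are given on the deposited scale and then on the TPM scale. Wtap stood at 5.31, 5.94 and 5.56 FPKM in Wtap-flox and at 5.86, 6.45 and 5.77 FPKM in Wtap-HKO (log2 fold change 0.10, adjusted p = 0.440). This value over the whole gene does not check the loss of 1 exon. By immunoblot, the paper reports loss of WTAP protein from the liver of Wtap-HKO mice of this age. Wtap-flox replicate 1 stood apart from the other controls. Of 11 male-biased liver genes 10 were highest there among the Wtap-flox libraries, and of 14 female-biased genes 10 were lowest there, so values without it are given where they end or add a call of a named gene.

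Most of the family fell. The test was limma on log2(FPKM + 0.2) over the 16547 genes that averaged 0.2 FPKM or more, and genes with an adjusted p under 0.05 were called. A fold change on this scale understates that of low genes. All 9 members found passed this filter, and 7 of them fell, 1 rose (Cyp2c55) and 1 was not called (Cyp2c39). Over all genes tested, 20.7% were called lower and 19.5% higher. The median log2 fold change of the members was -2.31, beside 0.01 over all genes. A called fall of more than 2 on the log2 scale occurred in 5 of the 9 members and in 1.43% of all genes. The groups did not overlap in 8 of the 9 members, where 54.2% of all genes did not overlap. On the TPM scale, 6 members were called lower, Cyp2c40 no longer among them, while 5.97% of all genes were called lower and 48.8% higher. Of all 13 Cyp2c genes tested, 9 were called lower there. Counts of the gene lists further on are to be read beside these shares of all genes.

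**Figure D2:**
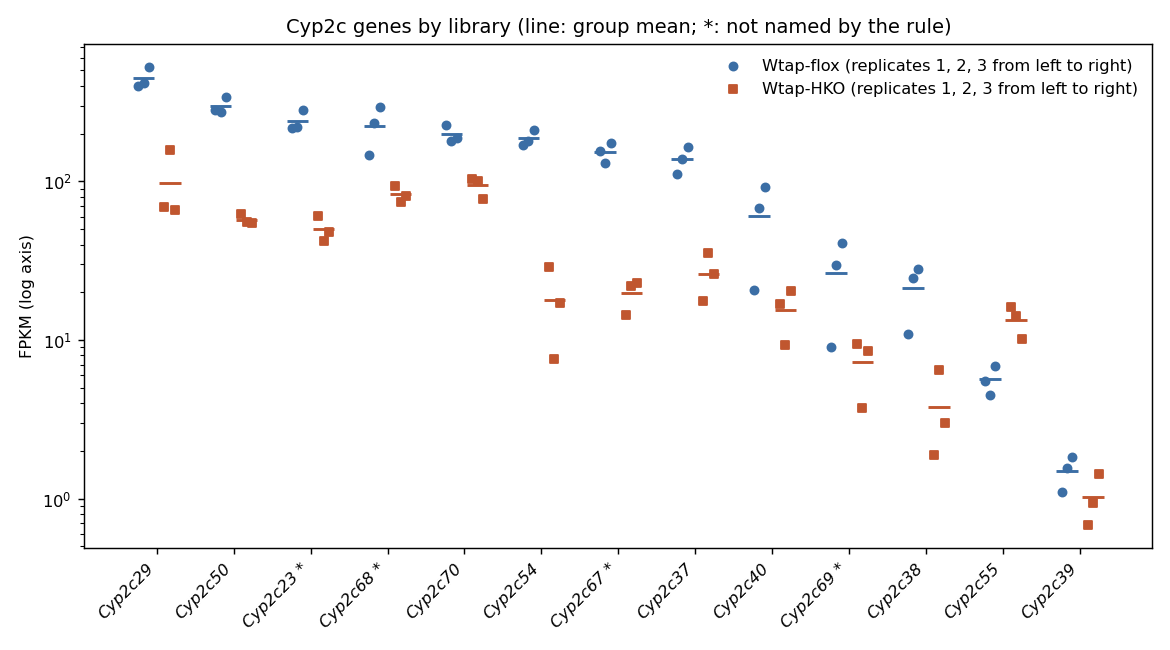
FPKM on a log axis of the 13 Cyp2c genes that passed the filter, with 1 point per library and a line at each group's mean. Cyp2c55 is the only gene whose 3 Wtap-HKO points all lie above the Wtap-flox points, and Wtap-flox replicate 1 is the lowest control for Cyp2c38, Cyp2c40, Cyp2c68 and Cyp2c69.

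**Figure D3:**
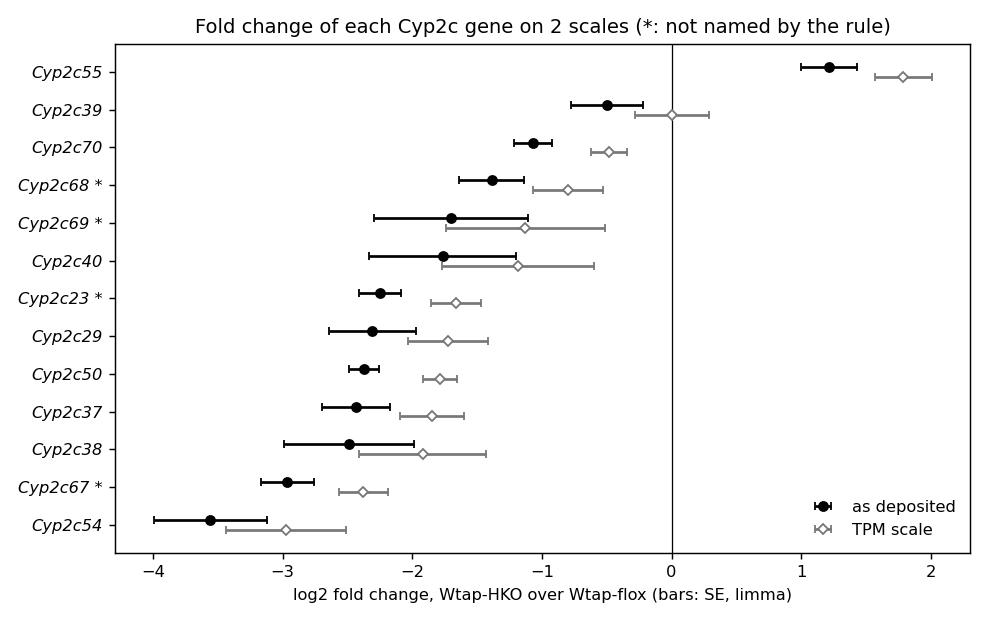
Log2 fold change of Wtap-HKO over Wtap-flox for the same genes, with the standard error from limma, on the deposited scale (filled) and the TPM scale (open). The rescaling moves all points to the right, Cyp2c39 to 0.00 and Cyp2c55 to 1.79, and leaves Cyp2c54 lowest at -2.98.

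Cyp2c29 (ENSMUSG00000003053, chromosome 19, 39269405 to 39330713), an arachidonic acid epoxygenase known to be induced through CAR, was the most abundant member in both groups. It stood at 399.9, 416 and 527 FPKM in Wtap-flox replicates 1 to 3 and at 69.1, 157 and 65.6 FPKM in Wtap-HKO. Every Wtap-HKO liver lay below every control, and Wtap-HKO replicate 2 was more than 2-fold above the other Wtap-HKO livers. Its log2 fold change was -2.31 ± 0.34 (SE, adjusted p = 0.00248), a 4.60-fold lower mean.

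Cyp2c37, Cyp2c50 and Cyp2c54 are near copies of each other that are known to oxidise arachidonic and linoleic acid. Cyp2c50 (ENSMUSG00000054827, chromosome 19, 40089688 to 40113950) stood at 283, 273 and 342 FPKM in Wtap-flox and at 62.3, 55.2 and 54.7 FPKM in Wtap-HKO. The 3 Wtap-HKO livers lay close together, with an SD of 4.26 about a mean of 57.4 FPKM. The log2 fold change, -2.37 ± 0.12 (SE, adjusted p = 0.000113), was the most precise of the members.

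Cyp2c37 (ENSMUSG00000042248, chromosome 19, 39992424 to 40012243) stood at 112, 139 and 166 FPKM in Wtap-flox and at 17.5, 35.2 and 26.0 FPKM in Wtap-HKO. The groups lay far apart, and the log2 fold change was -2.43 ± 0.26 (SE, adjusted p = 0.000861).

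Cyp2c54 (ENSMUSG00000067225, chromosome 19, 40037941 to 40073811) fell furthest. It stood at 168, 179 and 212 FPKM in Wtap-flox and at 28.8, 7.55 and 17.2 FPKM in Wtap-HKO. The controls were within an SD of 22.6 about a mean of 186 FPKM, whereas the Wtap-HKO livers spread almost 4-fold, with replicate 2 lowest. The log2 fold change was -3.56 ± 0.44 (SE, adjusted p = 0.00131), a 10.4-fold lower mean, and it ranked 41 from the lowest fold change of all genes tested. Wtap-HKO replicate 2 was thus the highest of the 3 for Cyp2c29 and the lowest for Cyp2c54, while replicate 1 was above replicate 3 for both genes.

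Cyp2c38 (ENSMUSG00000032808, chromosome 19, 39389556 to 39463075), another arachidonic acid epoxygenase, was expressed at a lower level. It stood at 10.8, 24.6 and 28.2 FPKM in Wtap-flox and at 1.88, 6.45 and 3.01 FPKM in Wtap-HKO. The groups did not overlap, and replicate 1 was the lowest library of each group. Its log2 fold change was -2.49 ± 0.50 (SE, adjusted p = 0.00848).

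Cyp2c40 (ENSMUSG00000025004, chromosome 19, 39767071 to 39812814), known as a hydroxylase of arachidonic acid and as a female-biased gene in mouse liver, gave the least secure call. It stood at 20.6, 67.7 and 92.1 FPKM in Wtap-flox and at 16.8, 9.31 and 20.3 FPKM in Wtap-HKO. Wtap-flox replicate 1 was almost level with the highest Wtap-HKO liver. The log2 fold change was -1.77 ± 0.57 (SE, adjusted p = 0.0445). It was -2.41 (adjusted p = 0.00609) without Wtap-flox replicate 1, and leaving out any 1 of the other 5 libraries ended the call, with adjusted p from 0.0706 to 0.124. It was not called on the TPM scale either (-1.18, adjusted p = 0.123).

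Cyp2c70 (ENSMUSG00000060613, chromosome 19, 40153353 to 40187333), the enzyme that makes the muricholic acids of mouse bile, fell least among the called members. It stood at 225, 179.6 and 188 FPKM in Wtap-flox and at 104, 101 and 77.9 FPKM in Wtap-HKO. All Wtap-HKO livers lay below all controls, and the log2 fold change was -1.07 ± 0.15 (SE, adjusted p = 0.00205). The fall was smaller on the TPM scale, at -0.48 (adjusted p = 0.0218).

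Cyp2c55 (ENSMUSG00000025002, chromosome 19, 39007019 to 39042693), a hydroxylase of arachidonic acid known from colon and kidney and from livers treated with CAR or PXR agonists, was the member that rose. It stood at 5.56, 4.50 and 6.88 FPKM in Wtap-flox and at 16.1, 14.1 and 10.1 FPKM in Wtap-HKO. The lowest Wtap-HKO liver was above the highest control. Its log2 fold change was 1.22 ± 0.21 (SE, adjusted p = 0.00508), a 2.38-fold higher mean, and it was 1.79 on the TPM scale (adjusted p = 0.000721). It was called higher under all 16 alternatives tried. As it is known from the gut, intestinal epithelium markers were checked. Of the 7 markers Cdx1 and Cdx2 were at 0 in all 6 libraries, while others were expressed. The summed level of the 7 was 67.6 to 90.8 FPKM in Wtap-flox and 34.5 to 42.8 FPKM in Wtap-HKO. Of 3 tested, 2 fell and none rose, and 1 fell on the TPM scale or without Wtap-HKO replicate 3. Without Wtap-HKO replicate 2, 1 rose. A part of gut material in the Cyp2c55 result was not tested.

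Cyp2c39 (ENSMUSG00000025003, chromosome 19, 39510862 to 39568529), a hydroxylase of retinoic acid, was the least abundant member. It stood at 1.10, 1.56 and 1.83 FPKM in Wtap-flox and at 0.682, 0.944 and 1.44 FPKM in Wtap-HKO, so that the groups overlapped. The difference was not called (-0.50 ± 0.28, SE, adjusted p = 0.195), and it was 0.00 on the TPM scale (adjusted p = 0.993).

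Of the other 6 Cyp2c genes 4 could be tested, and 3 of them fell. Cyp2c23 (ENSMUSG00000025197, chromosome 19, 44005022 to 44029208), an epoxygenase that lies apart from the cluster, stood at 216, 221 and 281 FPKM in Wtap-flox and at 60.5, 42.4 and 48.1 FPKM in Wtap-HKO. Its groups lay far apart (log2 fold change -2.25 ± 0.16, SE, adjusted p = 0.000285). Cyp2c67 stood at 155, 129.7 and 174 FPKM against 14.3, 22.0 and 22.8 FPKM (-2.96 ± 0.20, SE, adjusted p = 0.000243). Cyp2c68 stood at 146, 235 and 292 FPKM against 93.2, 73.7 and 81.1 FPKM (-1.39 ± 0.25, SE, adjusted p = 0.00552). These last 2 genes, 97.2% identical, fell by different amounts, and 23.7% and 19.8% of their windows are shared with other genes. The difference between them was not tested. Cyp2c69, the near copy of Cyp2c40, stood at 9.05, 29.8 and 40.9 FPKM against 9.43, 3.72 and 8.54 FPKM, so that Wtap-flox replicate 1 fell inside the Wtap-HKO range (-1.70, adjusted p = 0.0587). It was called lower without that library (-2.34, adjusted p = 0.0110). Cyp2c65 and Cyp2c66, genes known from the intestine, had 5 and 0 reads over all libraries, too few to compare. Of all 13 Cyp2c genes tested, 10 were called lower and 1 higher.

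The order of the levels changed with the group. In Wtap-flox the members ran from Cyp2c29 (447 FPKM) through Cyp2c50 (299), Cyp2c70 (198), Cyp2c54 (186), Cyp2c37 (139), Cyp2c40 (60.1), Cyp2c38 (21.2) and Cyp2c55 (5.65) to Cyp2c39 (1.496 FPKM). The ranges of the neighbours Cyp2c70 and Cyp2c54 overlapped there, and so did those of Cyp2c40 and Cyp2c38, while Cyp2c29 lay above all. In Wtap-HKO Cyp2c29 (97.4 FPKM) and Cyp2c70 (94.3 FPKM) had overlapping ranges at the top, above Cyp2c50 at 57.4 FPKM. Cyp2c55, at 13.4 FPKM, lay above Cyp2c38, at 3.78 FPKM, in every Wtap-HKO liver, whereas in Wtap-flox it lay below it in every liver.

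The summed level of the 9 members was 1227, 1285 and 1563 FPKM in Wtap-flox and 317, 387 and 276 FPKM in Wtap-HKO. The groups lay far apart, and the mean of 327 ± 56.2 FPKM in Wtap-HKO was 4.15-fold below the mean of 1358 ± 180 FPKM in Wtap-flox (SD, n = 3 each, exact two-sided permutation p = 0.1). A p of 0.1 is the smallest that 3 against 3 libraries allow. The sum was 2.78-fold lower on the TPM scale. The members took 0.251 to 0.336% of the FPKM sum of a Wtap-flox library and 0.0888 to 0.116% of that of a Wtap-HKO library.

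The share of each member in this sum was compared between groups. Cyp2c70 made up 14.8 ± 3.24% of it in Wtap-flox and 29.0 ± 3.41% in Wtap-HKO (SD, n = 3 each). Cyp2c55 went from 0.415% to 4.13%, and Cyp2c54 went from 13.7% to 5.75%. Cyp2c50 went from 22.1% to 17.9%. The groups did not overlap for these 4 genes or for Cyp2c39, which stayed under 1%. Each gave an exact permutation p of 0.1 and an adjusted p of 0.18 over the 9 shares. With 3 against 3 libraries the smallest possible p is 0.1, so no share could have passed the threshold. The permutation test therefore cannot decide whether a share changed. Cyp2c29 made up 32.9 ± 0.713% in Wtap-flox and 28.7 ± 10.4% in Wtap-HKO, where it ranged from 21.8 to 40.7%. Its share and those of Cyp2c37, Cyp2c38 and Cyp2c40 overlapped between groups.

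**Figure D4:**
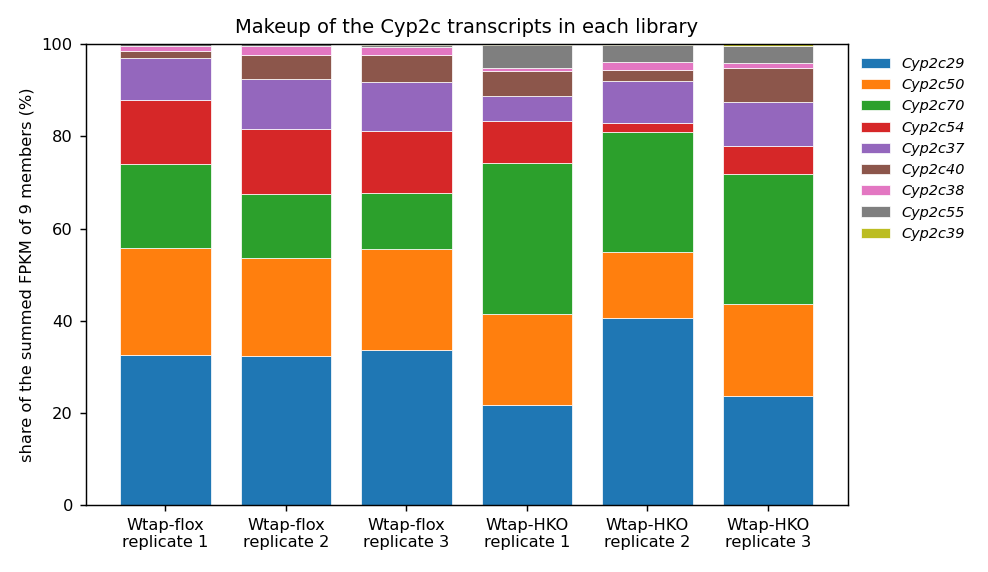
Share in percent of each member in the summed FPKM of the 9 members, as 1 stacked bar per library. The 3 Wtap-flox bars have nearly the same Cyp2c29 share (32.4 to 33.7%), and the Cyp2c70 share is larger in each Wtap-HKO bar (26.1 to 32.8%) than in any Wtap-flox bar (12.02 to 18.35%).

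The control livers differed among themselves for part of the family. Wtap-flox replicate 1 was the lowest control for 6 of the 9 members and 9 of the 13 Cyp2c genes, against 31.6% of all genes tested. The gap was widest in Cyp2c40 and Cyp2c69, which stood at 0.258 and 0.256 times the mean of the other 2 controls, and in Cyp2c38 at 0.410 times. It was 0.849 times in Cyp2c29 and 0.922 times in Cyp2c50, and Cyp2c70 was higher there, at 1.22 times. Genes with known sex bias moved with it. Cyp2a4, female-biased in mouse liver, stood at 0.177 FPKM in replicate 1 and at 57.6 and 53.7 FPKM in replicates 2 and 3, while the male-biased Mup20 stood at 2159, 804 and 675 FPKM. Between the groups, all 11 male-biased genes were called lower in Wtap-HKO (median log2 fold change -3.17) and 7 of 14 female-biased genes higher (median 2.25). Without Wtap-flox replicate 1 these counts were 11 and 5, and without Wtap-HKO replicate 3 they were 9 and 4. The TPM scale gave 10 and 9. Some of the female-biased genes called higher averaged under 0.2 FPKM in Wtap-flox and passed the filter only through Wtap-HKO. Hao2, for example, averaged 0.0943 FPKM in Wtap-flox and 4.69 FPKM in Wtap-HKO. The count of higher genes in this list therefore leans upward. With a filter of 1 FPKM, 4 of 10 female-biased genes were called higher (median 2.47). The part of these sex-biased differences in the result for Cyp2c40 and Cyp2c69 was not tested.

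**Figure D5:**
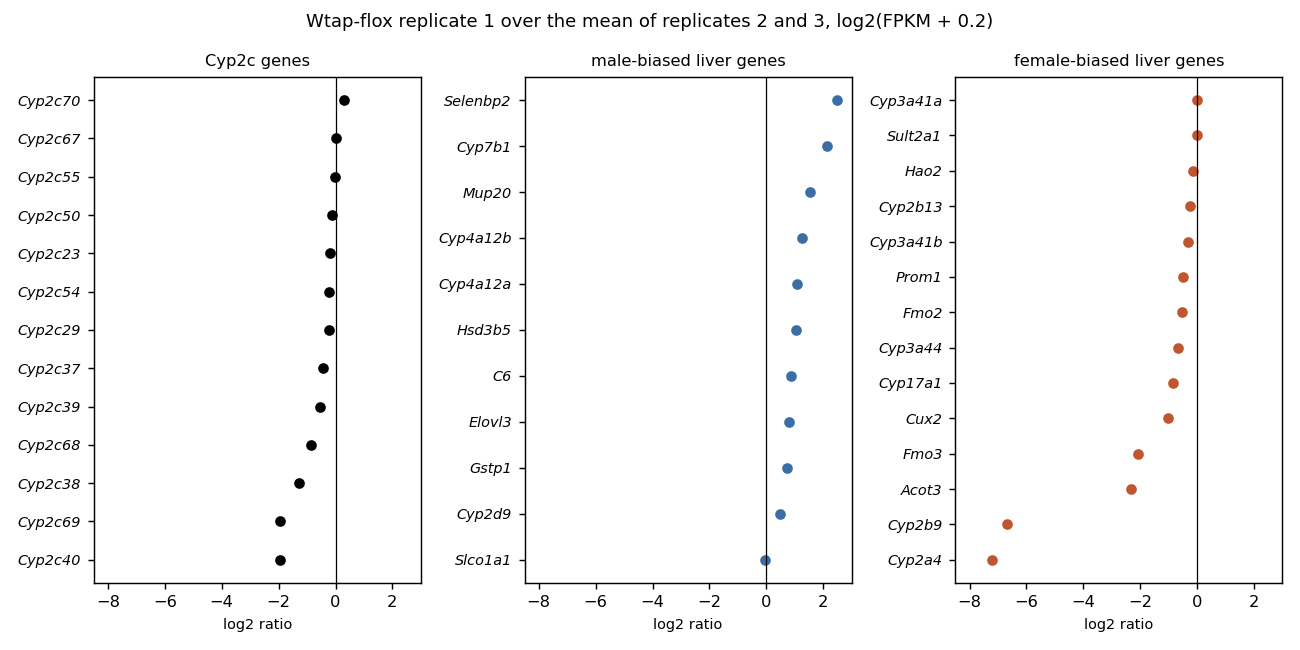
Log2 ratio of Wtap-flox replicate 1 to the mean of replicates 2 and 3, from FPKM + 0.2, for the 13 Cyp2c genes, 11 male-biased genes and 14 female-biased genes tested. Cyp2c40 and Cyp2c69 lie at -1.94, in the direction of the female-biased Cyp2a4 at -7.21, while male-biased genes lie to the right of 0 except Slco1a1 at -0.03.

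Receptors that are known to drive Cyp2c genes were read beside them. Nr1i3, which encodes CAR, stood at 20.7, 22.5 and 25.2 FPKM in Wtap-flox and at 3.86, 2.88 and 3.33 FPKM in Wtap-HKO (log2 fold change -2.70 ± 0.13, SE, adjusted p = 0.000111). Nr1i2, which encodes PXR, was called lower (-0.64, adjusted p = 0.0180), but not without Wtap-flox replicate 1 (-0.63, adjusted p = 0.0557) nor on the TPM scale (-0.06). Of 13 xenobiotic receptors and their partners, 8 were called lower and none higher, with Ppara at -1.56. That count was 5 without Wtap-flox replicate 1 or 3 and 4 without Wtap-flox replicate 2 or Wtap-HKO replicate 3, and the TPM scale called 2 lower and 3 higher. Other genes known as CAR targets did not move as one. Of 11 of them, 2 rose and 5 fell, and on the TPM scale 4 rose and 1 fell. Cyp2b10, the classic CAR target, rose from 0.474, 0.870 and 1.27 FPKM to 4.63, 46.7 and 17.0 FPKM (3.95 ± 0.77, SE, adjusted p = 0.00752), and Abcc4, an efflux pump, rose by 3.66. Wtap-HKO replicate 2, the highest for Cyp2b10, was also the highest Wtap-HKO liver for Cyp2c29, Cyp2c37 and Cyp2c38. That liver was the lowest for Cyp2c54, Cyp2c40, Cyp2c68, Cyp2c69 and Cyp2c23. It lay between the others for Cyp2c39, Cyp2c50, Cyp2c55, Cyp2c67 and Cyp2c70. A link between the orders of Cyp2b10 and of the Cyp2c genes was not tested.

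Of 14 hepatocyte transcription factors known at P450 genes, 9 fell and none rose (median log2 fold change -0.91), while 5 fell and 3 rose on the TPM scale. Hnf4a stood at 219, 249 and 214 FPKM in Wtap-flox and at 89.0, 100.1 and 91.5 FPKM in Wtap-HKO, a difference far larger than the spread in either group (-1.28 ± 0.10, SE, adjusted p = 0.000331). The TPM scale still called it lower (-0.69). Nr0b2 (SHP), a corepressor induced by bile acids, fell by 2.28 on the log2 scale. Among 11 growth hormone and sex-bias regulators tested, Ghr (-1.53) and Igf1 (-1.06) fell and Cish (1.71) rose. With Wtap-flox replicate 3 left out, 2 rose. The TPM scale called 1 of them lower and 5 higher. Over all genes tested, 20.7% were called lower and 19.5% higher, or 5.97% and 48.8% on the TPM scale. The counts of this list are near those shares.

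The partners that the enzymes need were read next. Por, the electron donor of all microsomal P450 enzymes, stood at 211, 216 and 235 FPKM in Wtap-flox and at 159.6, 149 and 123 FPKM in Wtap-HKO (-0.62 ± 0.12, SE, adjusted p = 0.00740). The list of electron donors held 7 genes, not all of which pass electrons to microsomal P450 enzymes. Of these 7, 5 fell and 1 rose. Cyb5b, a mitochondrial cytochrome b5, was at -1.23, Pgrmc1, a heme-binding protein, at -1.06 and Cyb5a, the microsomal cytochrome b5, at -0.89. Of 9 heme synthesis genes, 7 fell and none rose, with Alas2, the erythroid form, at -1.90 and Cpox at -1.22. Alas1, the form of hepatocytes, was at -0.80 (adjusted p = 0.0138) and was not called on the TPM scale (-0.21, adjusted p = 0.284). No gene of the donor list was called higher without Wtap-flox replicate 3. On the TPM scale 3 genes of the donor list were called lower and 1 higher, 3 heme genes lower and 2 higher, and Por was not called (-0.03).

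Among the enzymes that act beside the Cyp2c epoxygenases, Cyp2j5, an epoxygenase of another subfamily, stood at 267, 269.9 and 332 FPKM in Wtap-flox and at 47.5, 56.4 and 50.7 FPKM in Wtap-HKO (-2.48 ± 0.12, SE, adjusted p = 0.000111). Its fall was about that of Cyp2c50 in size, and the 2 were not compared by a test. Ephx2, the soluble hydrolase that opens fatty acid epoxides, fell (-1.29 ± 0.12, SE, adjusted p = 0.000487). Ephx1, the microsomal hydrolase, stood at 276, 273 and 235 FPKM against 350.4, 349 and 297 FPKM (0.35, adjusted p = 0.0553), and the TPM scale called it higher (0.93, adjusted p = 0.000622). Of 6 tested genes of this list, 4 fell and none was called higher, whereas 1 was called higher with a filter of 1 FPKM, the replicate block, protein-coding genes alone or voom on the rebuilt reads. The TPM scale called 3 lower and 2 higher. Of 13 tested genes of bile acid synthesis, where Cyp2c70 acts, 9 fell and none rose, with Cyp7b1 at -4.90, Cyp8b1 at -1.81 and Cyp27a1 at -1.43, and 5 fell and 1 rose on the TPM scale. Of 11 tested genes of arachidonic acid supply and its other oxygenases, 6 fell and 2 rose, with 1 rising when Wtap-flox replicate 1 or 2 was left out. The TPM scale called 3 of 12 lower and 4 higher.

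Other P450 genes had medians nearer 0. Of 33 tested genes of families 1 to 3 outside Cyp2c, 15 fell and 5 rose (median log2 fold change -0.55), and of 25 in the remaining families 11 fell and 6 rose (median -0.41). The TPM scale gave 10 lower and 7 higher (median 0.04), and 10 lower and 8 higher (median 0.17). The median of the 13 Cyp2c genes was -2.25, or -1.66 on the TPM scale, without a test between the lists. Large falls were not confined to Cyp2c. A called log2 fold change under -1 occurred in 12 of the 33 genes, 10 of the 25 and 10 of the 13 Cyp2c genes, beside 6.74% of all genes. On the TPM scale these counts were 6, 7 and 7.

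Genes of hepatocytes and of other liver cells moved in the same comparison. The summed level of 11 secreted hepatocyte proteins was 65790 to 72550 FPKM in Wtap-flox and 33100 to 38370 FPKM in Wtap-HKO, and 8 of the 11 fell (median log2 fold change -0.79). That count was 3 when any 1 library other than Wtap-HKO replicate 2 was left out, and on the TPM scale 2 fell and 2 rose. Of 16 pericentral genes, which mark the zone where many P450 enzymes are made, 8 fell and 2 rose (median -0.78), with Glul at -2.27, and of 11 periportal genes 9 fell and 1 rose (median -1.14). The pericentral count of higher genes was 1 without Wtap-flox replicate 1 or Wtap-HKO replicate 3, and the periportal one was 2 without Wtap-HKO replicate 1. The TPM scale called 5 pericentral genes lower and 3 higher (median -0.21), and 5 periportal genes lower and 2 higher (median -0.55). Of 7 Kupffer cell and macrophage markers 5 rose, with a sum of 182 to 221 FPKM in Wtap-flox and 297 to 405 FPKM in Wtap-HKO. Of 7 stellate cell markers 5 rose, and of 6 cholangiocyte markers tested 3 rose. The cholangiocyte count was 0 without Wtap-flox replicate 2 or Wtap-HKO replicate 3 and 1 without Wtap-flox replicate 1 or Wtap-HKO replicate 1, and 3 Kupffer markers rose without Wtap-flox replicate 1. Of 7 endothelial markers 2 rose, or 1 when any library but Wtap-flox replicate 3 was left out. Of 8 lymphocyte markers tested 1 rose, or 0 when any library but Wtap-HKO replicate 2 was left out. The TPM scale called higher all 7 Kupffer, all 7 stellate and all 7 endothelial markers, 5 cholangiocyte markers and 2 lymphocyte markers. None of the tested markers of these lists fell. In whole liver, fewer hepatocytes and less of a transcript per hepatocyte cannot be told apart. The part of cell makeup in the Cyp2c result was not tested.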

How the data were processed

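The authors aligned paired-end reads to GRCm38.p6 with TopHat2, used HTSeq 0.6.1 to count them and deposited FPKM for each gene. For the annotation release, the strand setting and the FPKM tool, the sources used here give nothing. Groups and replicate numbers came from the sample labels. FPKM times gene length gave back whole reads (100% of values within 0.01 reads). The library sizes they imply were 0.834 to 0.846 times the read sum in Wtap-flox and 1.17 to 1.24 times in Wtap-HKO.

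Log2(FPKM + 0.2) was tested with limma 3.58.1 (R 4.3.3, eBayes with a trend, two-sided) over the 16547 genes averaging 0.2 FPKM or more, with Benjamini-Hochberg adjustment at 0.05. Sums and shares were tested by exact permutation (scipy 1.17.1). Identity was computed with Biopython 1.88 on coding sequences from GENCODE M21 in place of the planned proteins. Tables used pandas 2.3.3 with numpy 2.4.6 under Python 3.11.15, and plots matplotlib 3.10.9.

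The members and lists were chosen with earlier results of these data known. Named genes were the members, other Cyp2c genes, Wtap, Nr1i3, Nr1i2, Hnf4a, Por, Ephx1 and Ephx2, and, from each list, up to 3 called genes that averaged 1 FPKM or more and changed most. Cyp2a4, Mup20, Slco1a1, Alas1, Cdx1 and Cdx2 fall outside this rule and were named after their values were seen. In simulated data over 16550 genes, limma recovered 6.49% of the 77 genes given a 1.5-fold change. It recovered 50.0% of 58 at 2-fold and 84.7% of 59 at 4-fold, and called 13 unchanged genes. That simulation changed 200 genes and gave all genes the same dispersion of 0.0131. In the data 3431 genes were called lower and 3222 higher, and Cyp2c40 had an SD of 36.3 about a mean of 60.1 FPKM in Wtap-flox. The rates therefore do not give the recovery in these data. The alternatives tried were a pseudocount of 1 or 0.05, a 1 FPKM filter or no filter, the TPM scale, median-of-ratios scaling, no trend, the replicate block, protein-coding genes alone, voom on the rebuilt reads and each library left out.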

Additional observations from a re-analysis of the deposited data

How the results depend on the processing

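The count of members called lower was 7, or 6 where Cyp2c40 lost its call, and Cyp2c55 was called higher under all 16 alternatives. The 6 other called members were called lower under every alternative. Cyp2c40 was not called with no filter (adjusted p = 0.0804), on the TPM scale (0.123) or without the trend (0.0659), and leaving out 1 library gave 0.00609 to 0.124. Cyp2c69 was called with a filter of 1 FPKM (adjusted p = 0.0492), with protein-coding genes alone (0.0327), with voom on the rebuilt reads (0.0345) and without Wtap-flox replicate 1 (0.0110). The log2 fold change of Cyp2c39 turned to 0.0037 on the TPM scale. The share of Cyp2c40 was 0.732 percentage points higher in Wtap-HKO, and leaving out 1 library gave differences from -0.568 (Wtap-flox replicate 1 left out) to 2.04. It was -0.428 when Wtap-HKO replicate 3 was left out, so its direction depends on these libraries. The cause was not tested.

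Over all genes, 3431 were called lower and 3222 higher, and the TPM scale gave 999 and 8167. Leaving out 1 library gave 2515 to 3099 lower and 2131 to 2926 higher, the smallest count of higher genes coming without Wtap-HKO replicate 3. The log2 ratio of the summed members ranged from -2.20 to -1.94 over the libraries left out. Median-of-ratios scaling left the values as deposited, with a factor of 1.006 in every library.

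The replicate numbers name the mice, and same-numbered libraries did not deviate together (correlations of 0.0146, 0.0433 and 0.0642). With the replicate block, 3057 genes were called higher and 3508 lower, 7 members were lower and 1 was higher, so the count of members did not change. Depth limits Cyp2c39, with 112 Wtap-flox reads and 115 Wtap-HKO reads, and Cyp2c65 and Cyp2c66, which could not be tested.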
